A study of Mus musculus with 24 samples.

Results

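The 10 genes are targets of the transcription factor p53, grouped under cell cycle arrest and p53 feedback, although several have other functions, given below. They were taken by symbol from the deposited table of normalized read counts, which lists 54658 genes, 34228 of them above 0 in some library, and all 10 were found. RNA was measured in mouse embryos that lack *Cep135*, a gene for a structural protein of centrioles, and in controls. The labels give the mutants as *Cep135* (-/-) and the controls as *Cep135* (+/+), all obtained by crossing heterozygous parents. The mutant allele carries a small CRISPR deletion in an early exon in every cell of the animal, so that no tissue or stage was targeted. There were 3 mutants (A, B and C) and 3 controls (D, E and F) at E11.5 (E, embryonic day), and 3 mutants (1, 2 and 6) and 3 controls (3, 4 and 5) at E14.5. From each embryo 1 library of dorsal telencephalon, the tissue that forms the cerebral cortex, was made. Progenitors isolated from the same 6 E14.5 embryos were also grown as early neurospheres for 12 and 24 h, which gave 24 libraries from 12 embryos. The 2 ages came from different litters, so that age and litter cannot be told apart. The labels of mutant 6's cortex name both ages, and it was used as an E14.5 cortex, the age in its title.

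In most cells p53 is made and destroyed continuously. When damage or a prolonged mitosis stops its destruction, the protein accumulates and switches on genes that halt division, start cell death or shut p53 down again, so p53 activity is commonly read from its target transcripts and not from its own. Among the 10 genes, *Cdkn1a* encodes p21, the inhibitor of cyclin-dependent kinases that carries out the arrest. *Mdm2* encodes the ubiquitin ligase that destroys p53, *Ccng1* encodes cyclin G1, a partner of a phosphatase that acts on Mdm2, and *Trp53inp1* encodes a nuclear protein that aids p53 phosphorylation. The other 6 are *Zmat3*, for an RNA-binding protein, *Plk2*, for a polo-like kinase with a part in centriole duplication, *Eda2r*, for a receptor of the tumor necrosis factor family, *Phlda3*, for an inhibitor of the kinase Akt, *Aen*, for a nuclease linked to apoptosis, and *Ddit4l*, for an inhibitor of mTOR signaling.

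p53 binds a motif of 2 half-sites of 10 bases each, and promoter windows of RefSeq (GRCm38.p6, 250 bases before to 50 bases after a transcription start) were searched for it with a spacer of up to 1 base. A match allowed 1 mismatch in 20 bases and kept the central C and G of both half-sites. The motif reads the same on both strands. Windows were at hand for 8 of the 10 genes. A full match stood in 2 of them, *Cdkn1a* and *Ccng1*, and in 36 of 32817 windows of all genes (0.110%). Both windows are printed 5′ to 3′ on the strand of the gene, with the matched site in capitals, because they hold a full match.
Cdkn1a: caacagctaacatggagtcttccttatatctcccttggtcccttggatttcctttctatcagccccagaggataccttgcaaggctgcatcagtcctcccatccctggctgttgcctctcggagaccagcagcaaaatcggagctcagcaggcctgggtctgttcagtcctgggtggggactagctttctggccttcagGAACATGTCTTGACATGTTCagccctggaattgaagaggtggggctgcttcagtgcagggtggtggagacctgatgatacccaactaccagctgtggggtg
Ccng1: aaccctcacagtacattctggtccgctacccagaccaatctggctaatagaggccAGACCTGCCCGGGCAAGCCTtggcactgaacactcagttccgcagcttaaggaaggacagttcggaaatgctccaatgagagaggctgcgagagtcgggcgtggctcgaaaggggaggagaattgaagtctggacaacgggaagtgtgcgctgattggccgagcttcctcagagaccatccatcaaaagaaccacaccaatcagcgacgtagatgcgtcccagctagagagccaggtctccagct
The *Cdkn1a* window lies on the plus strand at chr17:29090729-29091028, and its site, at chr17:29090928-29090947, spans bases -51 to -32 from the upstream of the gene's 2 RefSeq starts. The *Ccng1* window lies on the minus strand at chr11:40755237-40755536, with its site at chr11:40755462-40755481, or bases -195 to -176 from the start. Both sites differ from the motif at 1 of 20 bases, and both lie before the first exon in the annotation. With up to 3 mismatches *Aen* was added, at a level that 2.82% of all windows reach. Of genes higher in mutant cortices, as described further on, *Eda2r* had at best 9 mismatches and *Ddit4l* 4, whereas *Aen* overlapped between genotypes there. Whether the sites go with the changes was not tested. At least 1 perfect half-site was found in windows of 5 of the 8 genes, against 8.36% of windows overall. The 8 genes have 10 windows, so these counts are of genes and the shares of all are of windows. The genes were chosen as p53 targets, so these counts are descriptions and not a test. A match in letters does not show binding, and its absence says only that the letters are not in these windows.

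Libraries were read at the 3′ ends of transcripts and held 4732781 to 11645213 reads on genes. Between 6.11% and 34.8% of normalized reads came from *Gm42418*, a gene model that collects ribosomal RNA. At 24 h this share was 20.5% to 23.0% in mutants and 6.26% to 13.9% in controls, and the mutant libraries were also deeper (7903426 to 11645213 against 4732781 to 5709443 reads). *Cep135* transcripts, whose 3′ tags lie outside the deletion and so check nothing about it, stood at 173 to 336 normalized reads in mutants and 171 to 375 in controls. All 10 dorsal telencephalon markers were detected at each stage. Their sum did not overlap between genotypes in E11.5 cortices (4939 to 5464 in mutants, 5789 to 7018 in controls), in E14.5 cortices (9123 to 12530 against 13272 to 14691) and at 24 h (8663 to 9638 against 10310 to 13073). The 7 microglia markers were all detected in every cortex, and their sum was 787 to 993 in E14.5 mutant cortices against 439 to 499 in controls, and 451 to 612 against 299 to 453 at E11.5. Markers of choroid plexus were higher in mutant than in control cultures without overlap (4581 to 15870 against 983 to 3689 at 12 h, and 4912 to 16605 against 775 to 3556 at 24 h). Endothelial markers at E11.5 (1247 to 1428 against 1070 to 1204) and at 12 h (81.0 to 110 against 31.1 to 65.8), mesenchymal markers at 24 h (224 to 290 against 146 to 182) and liver transcripts at E11.5 (79.2 to 882 against 49.0 to 51.4) and 24 h (124 to 401 against 11.3 to 27.0) were higher in mutants, and ventral telencephalon markers at E11.5 were lower (842 to 1017 against 1199 to 1428). Liver transcripts overlapped between genotypes in E14.5 cortices (60.3 to 85.0 in mutants, 65.9 to 1092 in controls) and at 12 h (217 to 954 against 23.6 to 1455), with the highest values in controls. By *Xist* and Y-linked transcripts, 2 of 3 mutants at each age, 1 of 3 E11.5 controls and no E14.5 control were female. The part of these differences in the results for the 10 genes was not tested except by the terms named beside each result. In bulk tissue, more cells that express a gene and more of its RNA per cell cannot be told apart.

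*Cdkn1a*, the arrest gene of the group, was higher in mutant than in control cortices at both ages, without overlap. At E11.5 it stood at 494, 554 and 466 normalized reads in mutants A, B and C and at 256, 159 and 281 in controls D, E and F. In E14.5 cortices mutants 1, 2 and 6 had 550, 634 and 443, whereas controls 3, 4 and 5 had 358, 345 and 222. Every mutant cortex of either age thus lay above every control cortex of either age, with the lowest mutant and the highest control both at E14.5. Over the 12 cortices, with age as a term, *Cdkn1a* rose by 0.99 ± 0.16 (SE) on the log2 scale (95% interval 0.66 to 1.32), with an adjusted p of 0.0152 in limma. With a further term for embryo sex the difference was 1.10 ± 0.18 (adjusted p = 0.0478, limma). At single ages it was 1.32 ± 0.15 with this term at E11.5 (adjusted p = 0.0223). In E14.5 cortices it was 0.83 ± 0.20 without the term and 0.55 ± 0.26 with it (adjusted p = 0.310 and 0.748). All fold changes given here are on the scale of log2(normalized read count + 1), which understates the change of low genes.

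*Eda2r* showed the widest separation among the 10 genes. Its values at E11.5 were 28.4, 35.7 and 31.0 in mutants and 4.03, 3.35 and 4.66 in controls, a ratio of means of 7.90. In E14.5 cortices they were 33.9, 30.9 and 38.4 in mutants and 8.23, 13.1 and 6.10 in controls, a ratio of 3.76. No mutant came near the control range, although the control values rest on few reads (4 to 18 reads per library in the 5 control cortices whose reads could be counted, and the counting error at 4 reads is 50%). Across the 12 cortices *Eda2r* rose by 2.28 ± 0.26 (adjusted p = 0.00115, limma). The mean in controls was below the limit of 10 normalized reads set for testing at both ages, so the gene was tested because of its mutant values, and without any limit its adjusted p in the 12 cortices was 0.00162. *Eda2r* lies on the X chromosome, and the male mutants B and 6 had the highest value of their groups.

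*Ccng1*, one of the feedback genes, followed the same order. It stood at 224, 250 and 252 in E11.5 mutants and 122, 97.8 and 146 in controls. In E14.5 cortices mutants had 192, 189 and 189 and controls 119, 119 and 126, and the SD of each E14.5 group was small (1.85 in mutants and 4.32 in controls, n = 3). Over the 12 cortices *Ccng1* rose by 0.82 ± 0.11 (adjusted p = 0.00461). *Ddit4l* was the fourth gene called, with 117, 118 and 91.6 against 52.4, 71.1 and 56.7 at E11.5 and 92.6, 74.0 and 78.3 against 44.7, 58.1 and 37.5 at E14.5. It rose by 0.83 ± 0.14 (adjusted p = 0.0247) over both ages.

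*Phlda3* and *Zmat3* also had no mutant within the control range at either age, but did not pass the threshold. *Phlda3* values were 33.5, 48.0 and 65.6 in mutants and 24.2, 29.3 and 17.9 in controls at E11.5, and 33.9, 36.4 and 50.9 against 14.1, 11.6 and 24.4 at E14.5. Those of *Zmat3* were 431, 433 and 398 against 267, 283 and 350 at E11.5, and 454, 407 and 431 against 234, 289 and 368 at E14.5. The fitted differences over the 12 cortices were 1.13 ± 0.23 for *Phlda3* and 0.53 ± 0.11 for *Zmat3*, each with an adjusted p of 0.0869 in limma. For each of the 6 genes *Cdkn1a*, *Ccng1*, *Eda2r*, *Phlda3*, *Zmat3* and *Ddit4l*, the exact two-sided permutation test within age gave p = 0.005, the smallest that 12 cortices allow. A gene without overlap at both ages always reaches this value, so the test adds nothing to the lack of overlap.

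The other 4 genes overlapped between genotypes at both ages. *Mdm2*, the gene of the main negative feedback, stood at 397, 417 and 410 in E11.5 mutants and 404, 365 and 377 in controls, and at 351, 350 and 478 against 328, 396 and 439 at E14.5. Its difference over the 12 cortices was 0.06 ± 0.10, with a 95% interval from -0.15 to 0.27. *Trp53inp1* ranged from 226 to 287 in mutants and 189 to 279 in controls at E11.5 and from 291 to 434 against 275 to 432 at E14.5 (difference 0.13 ± 0.14). *Aen* ranged from 312 to 384 against 242 to 319 at E11.5 and from 283 to 388 against 198 to 318 at E14.5 (difference 0.36 ± 0.13, adjusted p = 0.442). *Plk2* ranged from 104 to 142 against 58.3 to 130 at E11.5 and from 151 to 195 against 178 to 208 at E14.5 (difference 0.14 ± 0.18). The interval for *Plk2* reached from -0.24 to 0.52, so that neither a small fall nor a small rise was told apart from no change.

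**Figure D1:**
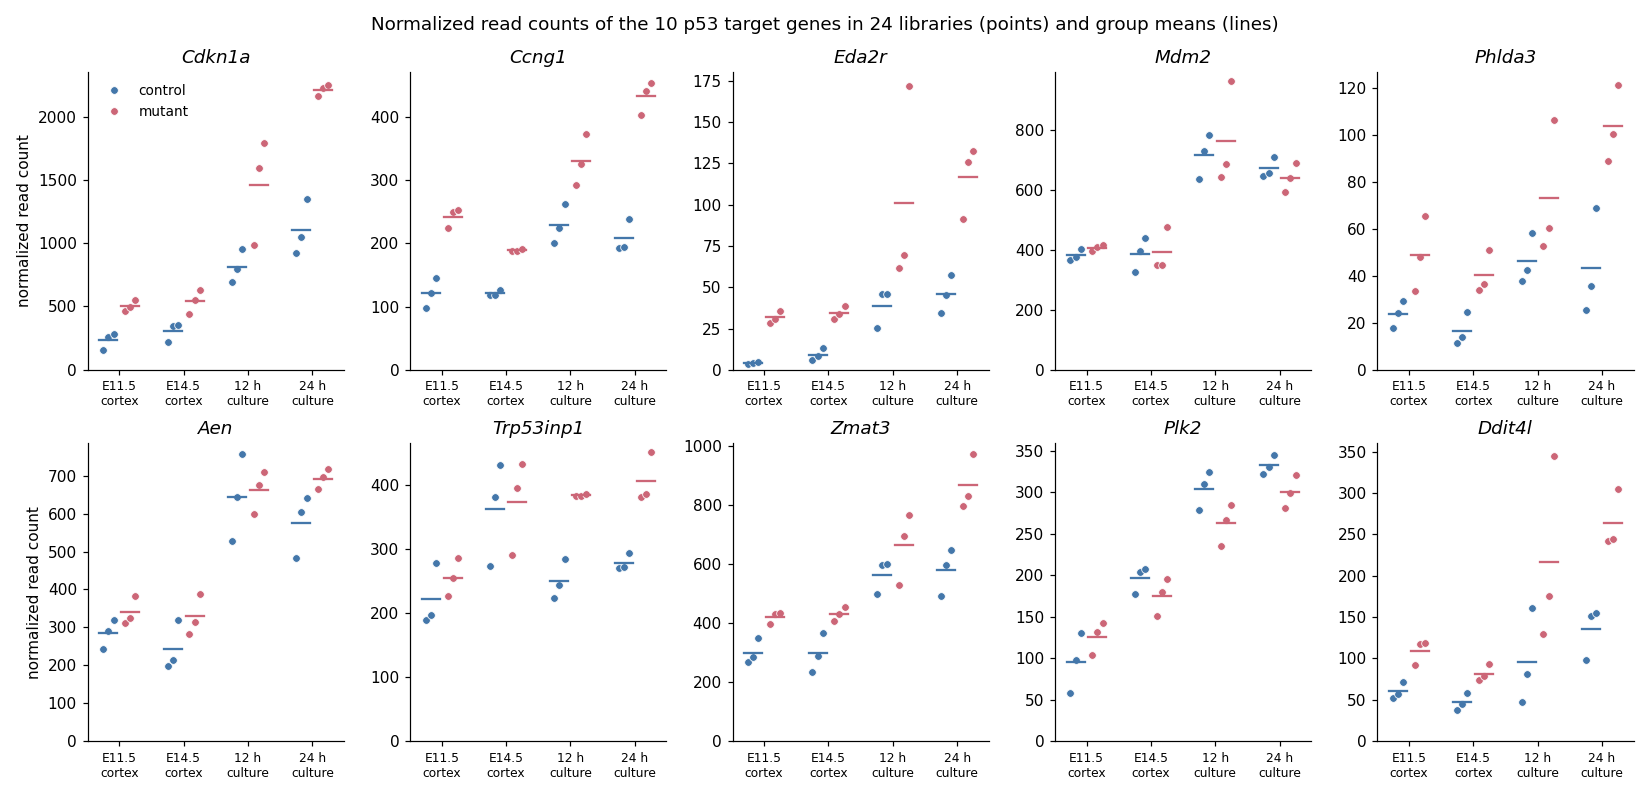
Normalized read counts (y axis, linear and starting at 0) of each of the 10 genes in E11.5 cortices, E14.5 cortices, 12-h cultures and 24-h cultures (x axis). Each point is 1 library (blue, control, red, mutant, n = 3 per group) and lines are group means; *Cdkn1a*, *Ccng1* and *Eda2r* have every mutant above every control at all 4 stages, whereas *Mdm2* overlaps at each.

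In numbers of calls, the 12 cortices gave 4 of the 10 genes higher in mutants at an adjusted p under 0.05 (*Cdkn1a*, *Ccng1*, *Eda2r* and *Ddit4l*) and none lower, where 0.0952% of all 13650 genes tested were called higher. In 6 of the 10 genes all mutants lay above all controls at both ages, as did 0.813% of all genes tested. At E11.5 limma called 0 of the 10 genes and 0.0149% of 13406 genes higher. An unadjusted p under 0.05 was reached there by 6 of the 10 and by 991 of all genes. In E14.5 cortices limma called 0 of the 10 genes and 0.0442% of 13583 genes higher, and an unadjusted p under 0.05 was reached by 7 of the 10 and by 1236 of all genes. With no limit on low values, limma called 3 of the 10 at E11.5 (*Cdkn1a*, *Ccng1* and *Eda2r*). On whole reads at E14.5 edgeR called 0 and DESeq2 2 of the 10 genes, *Cdkn1a* (adjusted p = 0.036) and *Eda2r* (0.0328). In every cortex test with the limit, this DESeq2 fit included, *Eda2r* entered only through its mutant values (control mean 9.13 at E14.5). All mutants lay above all controls for 6 of the 10 genes at E11.5 (7.16% of all genes) and for 6 at E14.5 (7.02%). The median difference of the 10 genes was 0.67 over the 12 cortices, compared with 0.01 for all genes tested. Since the 10 genes were chosen with earlier results of these data known, their counts and median beside all genes are descriptions.

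Of the 4 cortex calls, those of *Ccng1* and *Eda2r* held in all 12 fits that left out 1 cortex. Without E11.5 mutant C, or without E14.5 mutant 2, these were the 2 genes called, and *Cdkn1a* had a difference of 0.9999 and 0.9582 with an adjusted p of 0.0502 and 0.0658, respectively. *Ddit4l* lost its call in 9 of these 12 fits, with differences of 0.77 to 0.88. Its call also ended with a term for sex (0.79 ± 0.17, adjusted p = 0.284) and with all 24 libraries in 1 fit (0.83 ± 0.24, adjusted p = 0.454). With a term for the microglia marker sum, chosen after the data had been seen, 0 of the 10 genes and 0 of all genes were called. The differences in that fit were 1.35 ± 0.29 for *Cdkn1a*, 1.20 ± 0.19 for *Ccng1*, 2.93 ± 0.48 for *Eda2r* and 0.70 ± 0.28 for *Ddit4l*, with adjusted p of 0.491, 0.0744, 0.0744 and 0.972. In the cultures the microglia marker sum was 6.98 to 66.3 over both genotypes, and at 12 h it was 7.37 to 19.5 in mutants and 28.2 to 51.9 in controls.

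**Figure D2:**
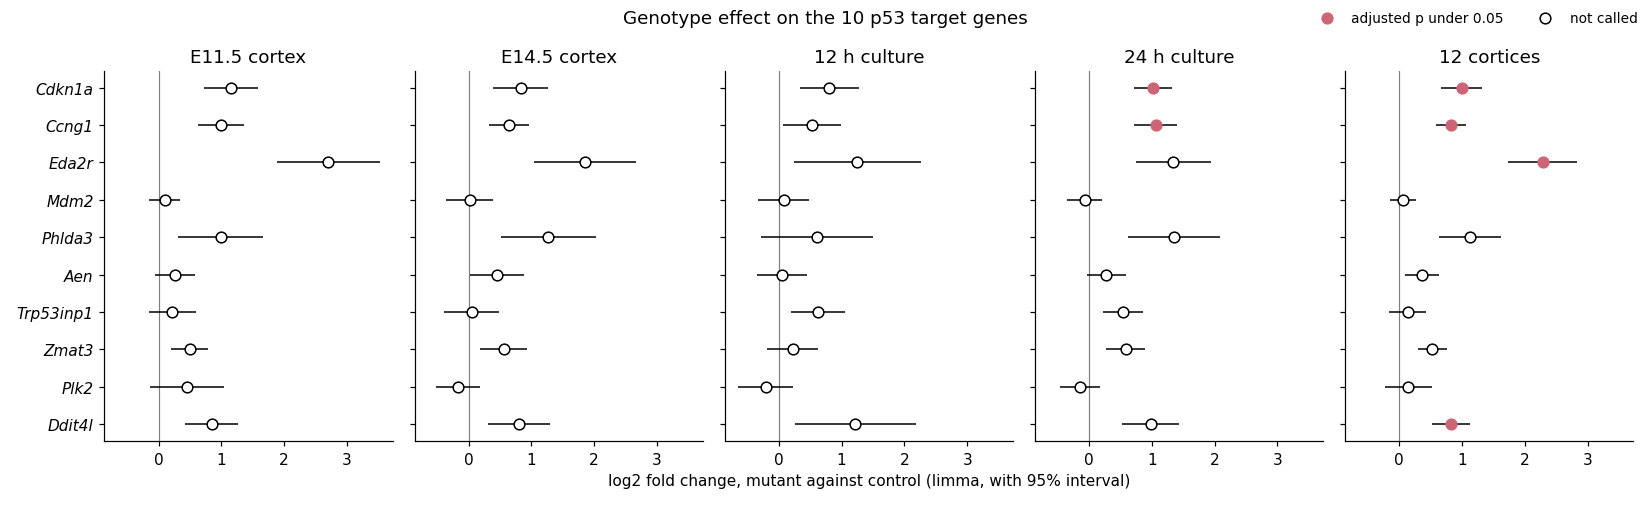
Log2 fold change of mutants against controls (x axis) for each of the 10 genes (rows) in 4 single-stage comparisons and in the fit of all 12 cortices. Points are limma estimates with 95% intervals, and filled points have an adjusted p under 0.05; these are *Cdkn1a* and *Ccng1* at 24 h and *Cdkn1a*, *Ccng1*, *Eda2r* and *Ddit4l* in the 12 cortices.

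After 12 h in culture the mutants of *Cdkn1a*, *Ccng1*, *Eda2r* and *Trp53inp1* all lay above the controls, but the spread between mutant embryos was wide and no gene passed the test. *Cdkn1a* stood at 1597, 1791 and 984 in mutants 1, 2 and 6, whereas controls 3, 4 and 5 had 950, 798 and 695, a difference of 0.80 ± 0.22 (adjusted p = 0.913, limma). Mutant 6 was thus barely above the highest control in *Cdkn1a*. In the same library *Eda2r* and *Ddit4l* were the highest of the stage. *Eda2r* values were 61.4, 69.4 and 172 against 45.6, 45.8 and 25.1, and *Ddit4l* values were 130, 176 and 345 against 47.2, 161 and 80.5. *Ccng1* stood at 292, 326 and 373 against 201, 263 and 225. *Trp53inp1* was nearly the same in the 3 mutants (384, 383 and 386) and lower in controls (244, 224 and 285), a difference of 0.62 ± 0.20 (adjusted p = 0.913). With a term for embryo sex the difference at 12 h was 0.28 ± 0.23 for *Cdkn1a*, 2.17 ± 0.53 for *Eda2r* and 2.01 ± 0.53 for *Ddit4l* (adjusted p = 0.524, 0.0637 and 0.0811). At this stage 0 of the 10 genes and 0% of 13389 genes were called higher by limma, and edgeR and DESeq2 on whole reads also called 0 of the 10. An unadjusted p under 0.05 in limma was reached by 5 of the 10 and by 650 of all genes. All mutants lay above all controls for 4 of the 10 genes, against 5.09% of all genes.

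At 24 h *Cdkn1a* and *Ccng1* were called higher in mutants than in controls. *Cdkn1a* stood at 2158, 2248 and 2222 in mutants 1, 2 and 6, whereas controls 3, 4 and 5 had 1050, 1348 and 920. The mutants lay close together (SD 46.1, n = 3), while the controls were spread more widely (SD 219). This was a difference of 1.02 ± 0.14 (95% interval 0.72 to 1.31, adjusted p = 0.0109). *Ccng1* stood at 404, 441 and 454 against 194, 192 and 239, a difference of 1.06 ± 0.16 (adjusted p = 0.0150). Mutant 6, which had been lowest for *Cdkn1a* at 12 h, was level with the other mutants at 24 h.

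For 6 further genes all mutants lay above all controls at 24 h without passing the threshold. *Eda2r* stood at 133, 91.1 and 126 against 34.1, 45.5 and 57.5 (1.34 ± 0.28, adjusted p = 0.0677) and *Ddit4l* at 244, 242 and 305 against 98.3, 155 and 151 (0.98 ± 0.21, adjusted p = 0.0733). *Zmat3* had 973, 798 and 829 against 490, 598 and 646 (0.59 ± 0.15, adjusted p = 0.111). *Phlda3* had 100.3, 89.1 and 121 against 35.5, 25.3 and 68.8 (1.35 ± 0.34, adjusted p = 0.122), and *Trp53inp1* had 381, 387 and 453 against 294, 271 and 273 (0.54 ± 0.15, adjusted p = 0.169). *Aen* had 717, 696 and 664 against 482, 640 and 605 (0.28 ± 0.14, adjusted p = 0.527). The remaining pair did not share this direction. *Mdm2* overlapped, at 691, 593 and 641 in mutants and 713, 659 and 648 in controls (-0.07 ± 0.13), and the *Plk2* values of 299, 321 and 281 in mutants all lay just below the 330, 322 and 345 of controls (-0.15 ± 0.15, adjusted p = 0.789).

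At 24 h 2 of the 10 genes were thus called higher, with 0.12% of 13300 genes called higher, and 8 had all mutants above all controls, against 7.15% of all genes. DESeq2 on whole reads called 6 of the 10, *Eda2r*, *Ddit4l*, *Zmat3* and *Phlda3* in addition, and edgeR called 2. Leaving out 1 library kept 1 or 2 calls. *Ccng1* had an adjusted p of 0.0556 without mutant 2, 0.0533 without mutant 6 and 0.0698 without control 3, and *Cdkn1a* one of 0.0539 without control 5. With a term for embryo sex the differences were 1.02 ± 0.20 for *Cdkn1a* and 1.13 ± 0.22 for *Ccng1*, and neither was called (adjusted p = 0.106 for both). With a term for the *Gm42418* share, which did not overlap between the groups, the difference was 0.47 ± 0.25 for *Cdkn1a* and 1.40 ± 0.34 for *Ccng1* (adjusted p = 0.939 for both).

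Whether the genotype effect differed between stages was tested by interaction terms, and no member passed. For each of the 4 tests limma called 0 of the 10 genes, and 0% of the 13359 to 13650 genes tested. An unadjusted p under 0.05 was reached by 0 of the 10 genes for E14.5 against E11.5 cortices, for 12-h cultures against cortices and for 24-h cultures against cortices, and by 1, *Ccng1*, for 24 h against 12 h. Among all genes tested it was reached by 1070, 724, 836 and 318, in that order. EdgeR and DESeq2, run on the 3 tests without E11.5 libraries, called 0 of the 10 as well. The member with the smallest p in each test was *Plk2* between the ages (the effect was lower at E14.5 by -0.62, 95% interval -1.32 to 0.09), *Trp53inp1* between 12 h and cortex (0.57, -0.01 to 1.16) and *Ccng1* between 24 h and cortex (0.42, -0.01 to 0.85) and between 24 h and 12 h (0.53, 0.01 to 1.05). For *Cdkn1a* the interval of the difference between 24 h and cortex ran from -0.36 to 0.73, so that a change of its genotype effect in culture was not detectable with 3 embryos per group.

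**Figure D3:**
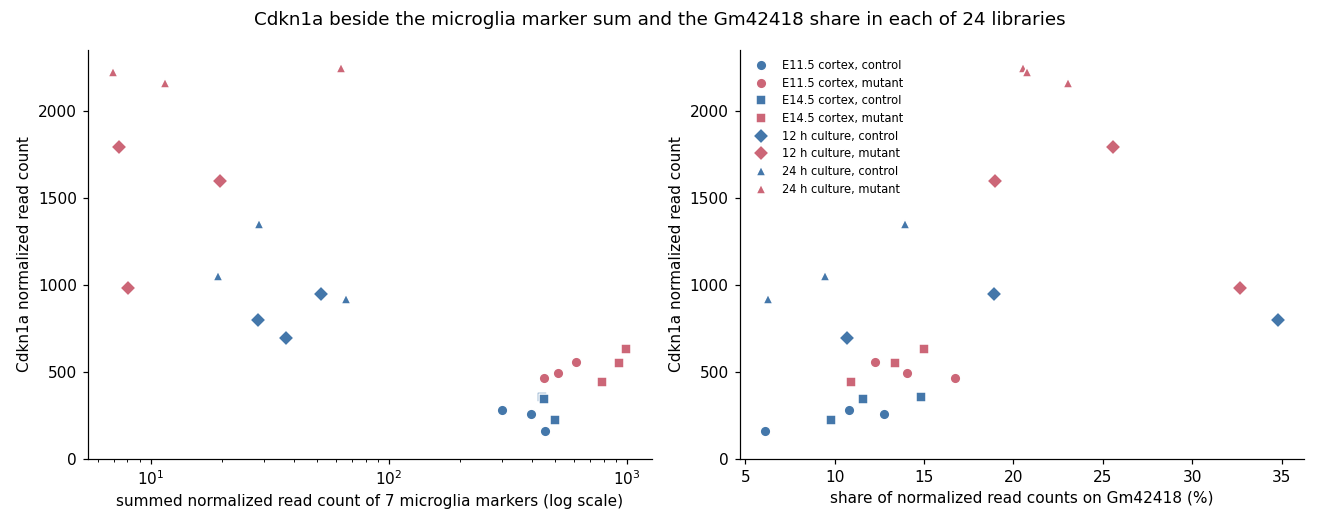
*Cdkn1a* normalized read count (y axis) beside the summed normalized read count of 7 microglia markers (left, log x axis) and beside the share of normalized reads on *Gm42418* in percent (right) for each of the 24 libraries. Color marks the genotype and the shape marks the stage; cultures lie at 6.98 to 66.3 on the left axis, and at 24 h the *Gm42418* share of mutants (20.5% to 23.0%) lies above that of controls.

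Levels of the 10 genes also moved with the culture itself, in both genotypes. In a fit over the 12 libraries of cortex and 12-h culture, 9 of the 10 genes rose in culture, whereas 14.1% of 13601 genes were called higher and 16.1% lower. *Cdkn1a* rose by 1.41 ± 0.16 (adjusted p = 9.91e-06), *Aen* by 1.22 ± 0.15 (1.59e-05), *Mdm2* by 0.92 ± 0.13 (6.71e-05) and *Ccng1* by 0.85 ± 0.12 (7.25e-05), and these adjusted p are from limma. The rise was 1.68 ± 0.32 for *Eda2r*, 1.13 ± 0.28 for *Phlda3*, 1.08 ± 0.28 for *Ddit4l*, 0.77 ± 0.13 for *Zmat3* and 0.61 ± 0.12 for *Plk2*. The exception was *Trp53inp1* (-0.23 ± 0.15, adjusted p = 0.275), for which control values went from 275 to 432 in cortex to 224 to 285 in culture. So *Mdm2* and *Plk2*, which did not separate the genotypes at any stage in the direction of *Cdkn1a*, were not fixed in level: *Mdm2* controls went from 328, 396 and 439 to 785, 636 and 732 in the same 3 embryos. The numbering pairs cortex and culture by embryo, and with embryo as a block, the paired fit, 9 genes were called as well. *Gm42418*, at 9.78% to 15.0% in the cortices and 10.7% to 34.8% at 12 h, moved with culture too. So did marker sums: from cortex to 12 h, endothelial markers went from 968 to 1105 down to 31.1 to 110, markers of meninges and mesenchyme from 1434 to 2442 down to 118 to 256, microglia markers from 439 to 993 down to 7.37 to 51.9, and erythroid markers from 16262 to 20569 up to 33447 to 69308. Their part in the rise of the 9 genes was not tested.

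Between 12 and 24 h limma called 0 of the 10 genes, and of 13359 genes it called 0.15% higher and 0.142% lower. An unadjusted p under 0.05 was reached by 1288 of all genes and by 1 of the 10. That gene was *Cdkn1a* (0.54 ± 0.14, adjusted p = 0.112). With embryo as a block its adjusted p was 0.018, the only call in that paired fit, and DESeq2 also called it (0.0289), while edgeR called 0. Between the ages, 3 of the 10 genes passed the test over the 12 cortices. *Plk2* (0.79 ± 0.18, adjusted p = 0.00145) and *Trp53inp1* (0.62 ± 0.14, adjusted p = 0.00146) were higher at E14.5, where 23.8% of 13650 genes were called higher, and *Ddit4l* (-0.39 ± 0.14, adjusted p = 0.0310) was lower, as were 29.3% of genes. The *Ddit4l* call was lost without any of 7 single cortices.

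Across the 8 groups *Cdkn1a* had this order of mean levels: E11.5 controls (232 ± 64.3, SD, n = 3), E14.5 control cortices (308 ± 74.7), E11.5 mutants (505 ± 45.2), E14.5 mutant cortices (542 ± 95.5), 12-h controls (815 ± 128), 24-h controls (1106 ± 219), 12-h mutants (1457 ± 421) and 24-h mutants (2209 ± 46.1). Among neighbors in that order, the pairs of controls at both ages, mutants at both ages, controls at both culture times, and 24-h controls with 12-h mutants overlapped in their values. The genes most like *Cdkn1a* over the 8 group means, by Pearson correlation of mean log2 values among 13677 other genes, were *Zmat3* (r = 0.988), *Gm37795* (0.968), *Tbc1d9* (0.961), *Ano3* (0.960) and *mt-Tc* (0.958). The correlations are descriptions over 8 points that share the difference between tissue and culture. In E14.5 control cortices *Gm37795* stood at 0 to 5.23 and *Ano3* at 4.36 to 5.23 normalized reads, so those group means rest on few reads. *Eda2r* came next in rank (6, r = 0.957), and the remaining members ranged from rank 36 for *Ddit4l* to rank 3406 for *Trp53inp1* (r = 0.533). Deviations of single libraries from their group mean had correlations with those of *Cdkn1a* from -0.54 for *Mdm2* to 0.47 for *Trp53inp1* over the 24 libraries, which share embryos and normalization. The other 7 genes lay between -0.35 for *Plk2* and 0.14 for *Zmat3*.

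*Trp53* itself was not called in any comparison of genotypes. It ranged from 83.8 to 158 normalized reads in mutant cortices and from 74.1 to 144 in control cortices (0.12 ± 0.14 over the 12 cortices, adjusted p = 0.852) and from 98.6 to 170 against 80.5 to 214 in cultures. Of the 16 genes of the list of p53 and its regulators, 14 were tested, and 0 passed limma's test in each of the 5 genotype comparisons. An unadjusted p under 0.05 was reached by 2 of the 14 in E14.5 cortices (*Atr*, a kinase that signals stalled replication, and *Trp73*, a relative of p53), by 1 in the 12 cortices (*Trp73*, 0.49 ± 0.17) and by 0 in the other 3. Among all genes it was reached by 1236 in E14.5 cortices, 1189 in the 12 cortices, and 991, 650 and 1414 at E11.5, 12 h and 24 h. The median difference of these 14 genes was 0.07 in the 12 cortices and -0.02 at 24 h.

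Among 30 other p53 targets of mixed function, 26 were tested in the 12 cortices and 1 passed, *Sesn2*, for a stress protein that restrains mTOR signaling (1.01 ± 0.18, adjusted p = 0.0367). *Sesn2* stood at 85.8 to 129 in E11.5 mutants and 33.3 to 52.1 in controls, and at 45.4 to 86.9 against 32.7 to 38.8 at E14.5. Next by p were *Psrc1*, for a microtubule-binding protein (0.38 ± 0.11, adjusted p = 0.310), the apoptosis gene *Bax* (0.43 ± 0.14, adjusted p = 0.403) and the ribosomal protein gene *Rps27l* (0.28 ± 0.10, adjusted p = 0.403). At 24 h 27 were tested and 1 passed, *Psrc1* (1.23 ± 0.22, adjusted p = 0.0348), at 220 to 353 in mutants and 101 to 150 in controls, followed by *Rps27l* (0.69 ± 0.14, adjusted p = 0.0652), *Perp* (2.60 ± 0.62, adjusted p = 0.106) and *Sulf2* (0.61 ± 0.17, adjusted p = 0.154). At single ages and at 12 h 0 passed, with an unadjusted p under 0.05 for 7 of 26 at E11.5 (*Sesn2* and the apoptosis genes *Bbc3* and *Pmaip1* first), 5 of 23 at E14.5 and 4 of 28 at 12 h. Among all genes it was reached by 991 of 13406, 1236 of 13583 and 650 of 13389, respectively. Of those tested, 21 had a difference above 0 in the 12 cortices and 26 at 24 h. The median of the list was 0.25 in the 12 cortices and 0.46 at 24 h, beside 0.67 and 0.78 for the 10 genes and 0.01 and -0.01 for all genes tested. Because the 10 genes and the list were chosen with earlier results of these data known, these medians are descriptions and not a test.

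p21 silences genes of the cell cycle through the DREAM complex. Of 24 such genes, all 24 were tested, and 0 passed in each of the 5 genotype comparisons. Their values leaned toward the mutants, and not below the controls: 23 of 24 differences were above 0 in the 12 cortices (median 0.17) and 22 of 24 at 24 h (median 0.31), where 7168 of 13650 and 6421 of 13300 of all genes were above 0. Among the genes with small p in the 12 cortices was *Mcm5*, for a subunit of the replicative helicase (0.37 ± 0.09, adjusted p = 0.196). At 24 h the smallest p belonged to *Bub1b*, for a kinase of the spindle checkpoint (0.68 ± 0.21, adjusted p = 0.239), and *Plk4*, for the kinase that starts centriole duplication (0.64 ± 0.21, adjusted p = 0.252). An unadjusted p under 0.05 was reached by 9 of the 24 in the 12 cortices and by 6 at 24 h, all with higher values in mutants, and by 1189 and 1414 of all genes in either direction. With age, 24 of 24 fell from E11.5 to E14.5 (median -1.07), as did 29.3% of all genes tested.

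Of 12 relatives of the members by family, 8 or 9 were tested and 0 passed in any genotype comparison. *Trp53inp2*, the family member of *Trp53inp1*, had the smallest p in the 12 cortices (-0.69 ± 0.17, adjusted p = 0.208), followed by *Ccng2* (-0.69 ± 0.26, adjusted p = 0.456) and *Cdkn1b*, which encodes the inhibitor p27 (-0.23 ± 0.09, adjusted p = 0.486). The other 6 of the 9 relatives had values above 0, and the median was 0.15. At 24 h 7 of 9 were above 0, with a median of 0.23. An unadjusted p under 0.05 was reached by 3 relatives in the 12 cortices and by 0 at 24 h, beside 1189 and 1414 of all genes.

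**Figure D4:**
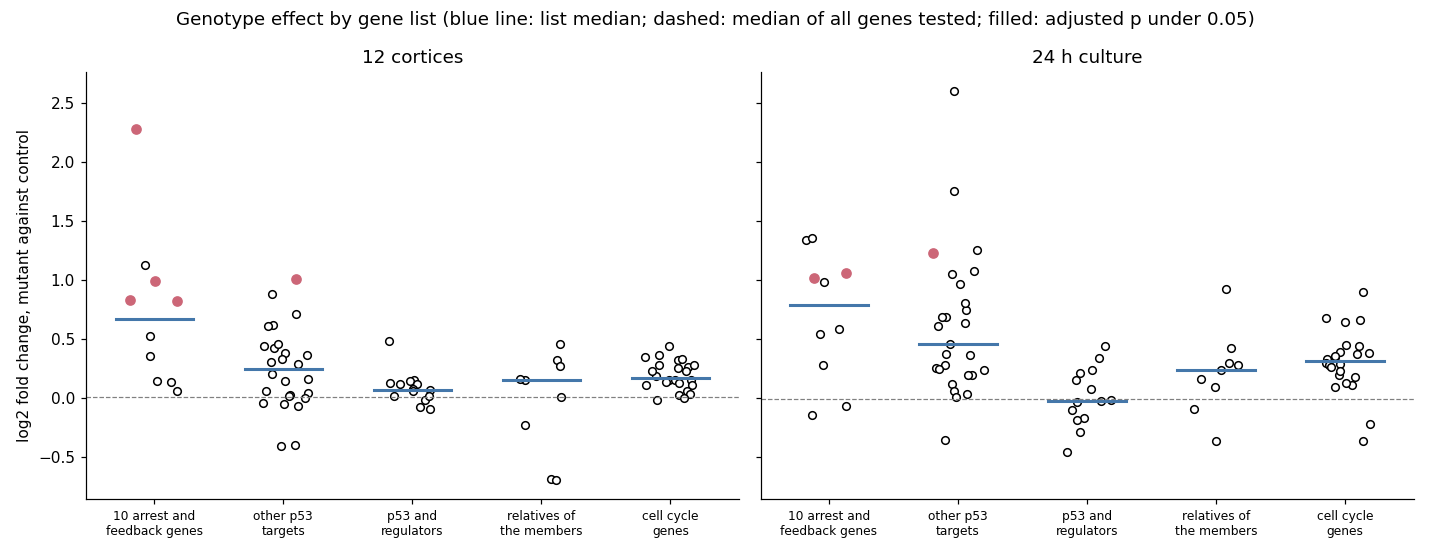
Log2 fold change of mutants against controls (y axis) for the tested genes of 5 lists (x axis) in the 12 cortices (left) and in 24-h cultures (right). Blue lines are list medians (0.67 and 0.78 for the 10 arrest and feedback genes), the dashed line is the median of all genes tested, and filled points have an adjusted p under 0.05.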

How the data were processed

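Total RNA from 12 embryos was sequenced as 24 libraries. Per the labels and the methods, the authors primed cDNA with oligo(dT) in a kit that marks strand, trimmed adapter and polyA sequence, mapped the reads on GRCm38 using TopHat2 2.0.10 (Bowtie 1.0.0, SAMtools 0.1.19) and counted them by strand per GENCODE gene with HTSeq 0.6.1. The authors deposited 1 table of signal, read counts divided by 1 size factor per library. In 23 of 24 libraries all 464180 values above 0 came out as whole reads (within 0.1 read). In E11.5 control D whole reads were not recovered, so edgeR and DESeq2 were run only on comparisons without E11.5 libraries. The fixed design allowed for counts or normalized values, and limma was used for the latter. No column was left unused.

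Mutants were compared with controls at each stage and over the 12 cortices with age as a term, and stages were compared with genotype as a term. Tests used limma 3.58.1 in R 4.3.3 with a trend, on log2(normalized read count + 1). A gene entered when its mean over the compared libraries reached 10, p-values were adjusted by Benjamini-Hochberg over every gene that entered, and the threshold was 0.05. Exact permutation tests were two-sided, with a smallest p of 0.1 for 3 embryos against 3. Gene positions came from GENCODE vM21 and promoter windows from RefSeq, both on GRCm38. *Cdkn1a* overlaps a gene on the opposite strand (*AC167363.2*, at most 4.70 normalized reads). Cortex and culture libraries of 1 embryo were paired by the embryo number in their labels; deviations of such pairs had correlations of -0.11 to 0.24 (median 0.14, 18 pairs).

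The 10 genes and the lists were chosen with earlier results of these data known. Text names the 10 genes, *Trp53*, *Cep135*, up to 4 genes per list by smallest p in a comparison with any that pass, and the 5 genes most like *Cdkn1a*. A result for a gene of the cell cycle list is not reported here. Alternatives were pseudocounts of 0.1 and 5, a threshold of 0.1, no limit or a mean of at least 50, TMM (edgeR 4.0.16) or quantile scaling, edgeR and DESeq2 (1.42.0) on whole reads, terms for sex and the *Gm42418* share, litter or embryo as a block, all 24 libraries in 1 fit, leaving out each library, and, chosen after seeing the data, a term for microglia markers. Steps were tested on simulated data. P-values of the genotype comparisons measure the spread between embryos, and counting errors cover sampling of reads only. Fits of cortex with culture, or of both culture times, treated libraries of the same embryo as independent unless embryo was a block.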

Additional observations from a re-analysis of the deposited data

How the results depend on the processing

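The number of the 10 genes called moved by more than 1.5 times under these alternatives, and the cause was not tested except where a fit used fewer libraries. In E11.5 cortices (0 called) it was 1 at an adjusted p under 0.1 or with a term for sex, and 3 with no limit on low values or with all 24 libraries in 1 fit. In E14.5 cortices (0) it was 2 with DESeq2. At 24 h (2) it was 4 at an adjusted p under 0.1, 5 with no limit, 6 with DESeq2, 0 with a term for sex, 0 with a term for the *Gm42418* share and 1 to 2 when 1 library was left out. Over the 12 cortices (4) it was 0 with the microglia term and 2 to 4 when 1 cortex was left out. Between 12 and 24 h (0) it was 1 with DESeq2 and 1 with embryo as a replicate block. The paired fit changed no other count of the 10 genes: the block gave 9 for 12-h cultures against cortices and 0 for the interactions with the cortex and between culture times. With the litter as a block, 0 were called at E11.5 and 4 in the 12 cortices. Litter was read from the prefix of each title, and for E11.5 mutants B and C the description carries a different prefix. If that prefix marks a separate litter, this block does not account for it.

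Single values turned sign only where they were small or in fits with an added term. In E14.5 cortices *Mdm2* was -0.024 after TMM scaling, *Trp53inp1* was -0.29 with sex, -0.067 with *Gm42418* and -0.48 with the microglia term, and *Zmat3* was -0.078 with the microglia term. At 12 h *Aen* and *Zmat3* were each -0.089 with sex, and *Ddit4l* was -0.60 with the microglia term. Over the 12 cortices *Plk2* was -0.056 with sex and *Trp53inp1* -0.020 with *Gm42418*. When 1 library was left out, the values ran from -0.13 to 0.11 for *Mdm2* and -0.14 to 0.22 for *Trp53inp1* in E14.5 cortices, from -0.10 to 0.19 for *Mdm2* and -0.084 to 0.18 for *Aen* at 12 h, and from -0.0065 to 0.10 for *Mdm2* and -0.030 to 0.23 for *Plk2* over the 12 cortices. In all, 1345 of 1366 recomputed values of single genes kept their direction.

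Over all genes, the number called ran from 0 to 17 (2 as reported) at E11.5, 0 to 74 (10) at E14.5, 0 to 182 (0) at 12 h, 0 to 182 (36) at 24 h and 0 to 35 (19) over the 12 cortices. Scaling left the median of all genes within 0.03 of 0 in the genotype comparisons. *Eda2r* (4 to 192 reads per library) and *Phlda3* (12 to 140) are limited by depth, and a mean of at least 50 removed both genes from the cortex tests.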
